A study of Homo sapiens with 24 samples.

Results

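To examine the promoters of axon guidance genes in TGFβ-treated cancer cells, 50 genes that encode Eph receptors, ephrins, semaphorins, Slits, Robo receptors and netrins were chosen by gene family from 19794 protein-coding genes. For each gene, the base pairs within 5 kb of any of its transcription start sites (TSSs) that were covered by peaks of H3K4me3, H3K27ac and H3K27me3 were counted in each peak list. The lists came from chromatin immunoprecipitation followed by sequencing (ChIP-seq) in PANC-1, an established line from a human pancreatic duct carcinoma. Cells received a control siRNA (siControl), the control siRNA and 10 ng/ml TGFβ for 48 h (siControl+TGFβ), or an siRNA against PHF13, a reader of H3K4me3, with the same TGFβ treatment (siPHF13+TGFβ). Each group had 2 libraries per modification, 18 libraries altogether, and all groups were cells of this single line. Whether the replicates came from separate cultures was not stated in the labels, so all tests measure the spread between libraries.

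Axon guidance cues steer growing axons by attraction and repulsion. Ephrins are membrane-bound ligands of the Eph receptor tyrosine kinases, semaphorins signal through plexins and neuropilins, Slits are secreted ligands of the Robo receptors, and netrins are secreted ligands of DCC and UNC5 receptors. The same molecules act outside the nervous system, on cell adhesion, migration and vessel growth, and are known to be altered in pancreatic cancer. H3K4me3 is a mark of promoters, H3K27ac of active promoters and enhancers, and H3K27me3 of chromatin repressed by Polycomb proteins. A promoter with both H3K4me3 and H3K27me3 is called bivalent or poised.

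Several features of the lists bear on every value below. Group names are those of the labels, whereas the names of single peaks inside the lists read NCT in siPHF13+TGFβ and 3AT in siControl+TGFβ for all 3 modifications. In the study's own usage NCT stands for the control siRNA with TGFβ, so that the peak names and the labels give these groups the opposite way round. Which of them is right could not be settled from the lists. The group names below denote the libraries as labelled. If the peak names were right, every difference with depletion would change sign, and the comparison with TGFβ would need the libraries labelled siPHF13+TGFβ, whose values are given beside the others. The list of siPHF13+TGFβ replicate 1 was the shortest for all 3 modifications. It held 6004 H3K27ac peaks against 19413 to 36104 in the other 5 lists. Comparisons with this group are therefore also given without it, except for bases covered in both libraries of a group. Peaks of a longer list cover more of any window, and the part of list length in each difference was not tested beyond the lists of equal length given below. Around the TSSs of PHF13 itself H3K4me3 peaks were present in all 6 lists, which does not measure the depletion of its transcript. Of 8 genes expected to be marked in these cells, H3K4me3 was present in all 6 lists at 7, among them KRT8, KRT18, KRT19 and EPCAM, but in 1 list at KRT7. It was so at 72.7% of all genes. H3K27ac was listed at all 8, from 1 list at GATA6 to 6 lists at KRT8, KRT18, EPCAM and VIM. H3K27me3 was in 6 lists at GATA6 and EPCAM and in 0 lists at the others. Of 11 markers of other cell types, 8 had H3K4me3 in 0 lists, among them CD3E, PTPRC, CDH5 and ALB, whereas COL1A1, a fibroblast collagen, had it in 6, INS in 2 and PTF1A in 1. H3K27ac was listed at COL1A1 alone of these, in 5 lists.

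H3K4me3 was present at nearly all of these genes, whereas H3K27ac was rare and H3K27me3 was common. H3K4me3 peaks were found in all 6 lists at 46 of the 50 genes (92%), against 72.7% of all protein-coding genes. H3K27me3 was found in all 6 lists at 23 genes (46% against 22%). Both were found in all 6 lists at 21 genes (42% against 14.1%). H3K27ac was found in all 6 lists at SEMA4B and ROBO3 alone (4% against 21%), and in 0 lists at 26 genes (52% against 35.4%). The first of these H3K27ac shares rests on siPHF13+TGFβ replicate 1, in which 2 members had a peak against 12 to 23 in the other lists. In the remaining 5 lists H3K27ac was present throughout at 11 members (22% against 49.4% of genes), namely EPHA2, EPHB2, EPHB4, EFNA5, SEMA3A, SEMA3C, SEMA4B, SEMA4C, ROBO1, ROBO3 and NTN4. In the same 5 lists 24 members carried H3K4me3 and H3K27me3 together (48% against 18.2%). Windows of the members spanned a median of 12299.5 bp against 10578 bp over all genes, and with only the 5′ end of each gene the genes with both marks in all 6 lists numbered 18 (36% against 12.1%). These shares describe families that were chosen by name and carry no test.

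**Figure D1:**
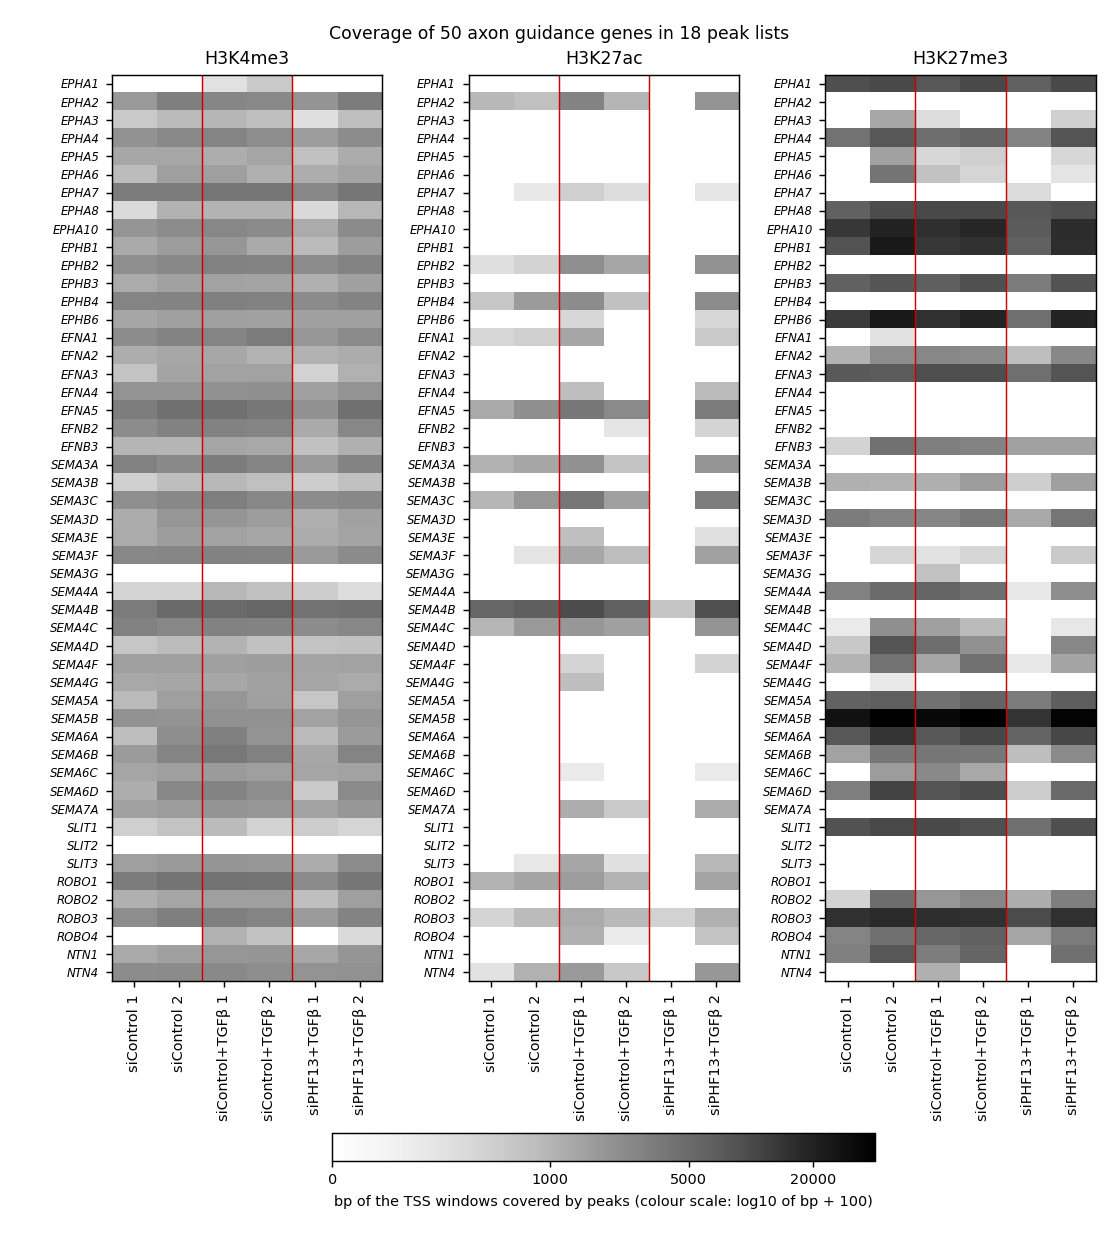
Base pairs covered by peaks around the TSSs of each of the 50 genes (rows) in each of the 6 libraries (columns) of the 3 modifications, with darker cells for more base pairs on a log10 colour scale and red lines between groups. H3K4me3 fills all rows but those of SEMA3G and SLIT2 and, in part, EPHA1 and ROBO4, whereas H3K27ac is blank in 26 rows and nearly blank in siPHF13+TGFβ replicate 1.

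H3K27ac was listed at most members without H3K27me3 and at few of those with H3K27me3 in all 6 lists. Of 14 members with H3K27me3 in 0 lists, 13 had an H3K27ac peak in at least 1 list, the exception being SLIT2. Of 23 members with H3K27me3 in all 6 lists, 4 did, namely EPHB6, SEMA4F, ROBO3 and ROBO4. Over all genes, the corresponding shares were 83.3% and 32.5%. Between the extremes, 7 of 13 members with H3K27me3 in some lists had H3K27ac, against 53.8% of such genes.

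The sequences of 5 promoters are given because they span these states: SEMA5B, with the most H3K27me3 of the genes that carry both marks, SEMA4B, with the most H3K27ac and the most H3K4me3, ROBO4, whose groups differed for all 3 modifications with TGFβ, SLIT2, without a peak, and SLIT1, its paralog, which was added after the values were seen. They are RefSeq promoters from 250 bases before to 50 after the gene start, taken from a table on GRCh38.p14. All lie on the strand of the gene, were placed in hg19 (GRCh37) by exact match, and are written 5′ to 3′ with CpG sites in capitals. SEMA5B is at chr3:122747403-122747702 (minus strand), SEMA4B at chr15:90744312-90744611 (plus), ROBO4 at chr11:124767712-124768011 (minus), SLIT2 at chr4:20253278-20253577 (plus) and SLIT1 at chr10:98945667-98945966 (minus).
SEMA5B: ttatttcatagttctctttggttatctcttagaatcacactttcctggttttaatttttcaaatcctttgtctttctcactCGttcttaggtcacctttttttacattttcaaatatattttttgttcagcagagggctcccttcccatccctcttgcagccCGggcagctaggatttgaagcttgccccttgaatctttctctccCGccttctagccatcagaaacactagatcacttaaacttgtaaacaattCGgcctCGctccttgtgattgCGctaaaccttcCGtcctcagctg
SEMA4B: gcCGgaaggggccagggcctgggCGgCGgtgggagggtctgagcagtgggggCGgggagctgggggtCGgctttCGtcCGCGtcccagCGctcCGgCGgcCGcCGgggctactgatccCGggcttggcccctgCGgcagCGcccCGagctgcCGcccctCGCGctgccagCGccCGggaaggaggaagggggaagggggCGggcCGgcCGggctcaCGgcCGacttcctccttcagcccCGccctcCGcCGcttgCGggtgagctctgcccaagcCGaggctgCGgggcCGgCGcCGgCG
ROBO4: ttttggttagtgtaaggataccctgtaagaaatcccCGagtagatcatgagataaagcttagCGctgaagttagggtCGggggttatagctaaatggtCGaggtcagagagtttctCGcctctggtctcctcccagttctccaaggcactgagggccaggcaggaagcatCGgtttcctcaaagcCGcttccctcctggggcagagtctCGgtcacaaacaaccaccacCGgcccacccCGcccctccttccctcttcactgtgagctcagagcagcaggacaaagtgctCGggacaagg
SLIT2: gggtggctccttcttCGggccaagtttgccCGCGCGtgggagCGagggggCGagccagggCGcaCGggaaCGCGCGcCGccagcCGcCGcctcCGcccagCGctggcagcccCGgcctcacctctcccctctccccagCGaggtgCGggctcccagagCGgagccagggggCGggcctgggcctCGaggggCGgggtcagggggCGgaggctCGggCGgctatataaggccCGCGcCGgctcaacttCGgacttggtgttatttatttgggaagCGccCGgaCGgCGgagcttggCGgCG
SLIT1: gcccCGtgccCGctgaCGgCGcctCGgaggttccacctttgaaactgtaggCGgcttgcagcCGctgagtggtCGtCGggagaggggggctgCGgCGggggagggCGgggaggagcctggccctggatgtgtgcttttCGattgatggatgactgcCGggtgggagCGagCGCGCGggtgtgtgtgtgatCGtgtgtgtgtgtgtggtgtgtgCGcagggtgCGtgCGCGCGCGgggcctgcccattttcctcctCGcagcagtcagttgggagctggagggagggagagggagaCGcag

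The promoters of SLIT1 and SLIT2 had the same observed over expected CpG ratio, 0.88, and differed in every H3K4me3 and H3K27me3 list, while neither had an H3K27ac peak. SLIT1 had 27 CpG sites and both H3K4me3 and H3K27me3 peaks in its 300 bp in all 6 lists, whereas SLIT2 had 36 CpG sites and 0 peaks of any modification within 5 kb of its 9 TSSs. The SEMA4B promoter was also rich in CpG (37 sites, ratio 0.79), yet H3K4me3 peaks covered it in 0 lists and H3K27ac peaks in 3, and the widest H3K4me3 peak of the gene had its midpoint 1598 to 1810 bp downstream of the nearest TSS. ROBO4 (11 sites, 0.48) had 0 peaks in its 300 bp. SEMA5B (7 sites, 0.59) had H3K4me3 and H3K27me3 in all 6 lists there, although its RefSeq start lies 727 bp from the nearest GENCODE TSS.

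Of the 50 genes, 44 matched a promoter in the table, all 44 were placed once in GRCh37, and 41 of these lay within 500 bp of a GENCODE TSS. Their median CpG ratio was 0.71, from 0.17 in EPHB6 to 1.06 in EFNB2, against 0.77 over 15280 promoters of protein-coding genes. A ratio of at least 0.6 was found in 33 members, and in 66.6% of the coding promoters. EPHB6, a receptor without kinase activity, had 3 CpG sites and H3K27me3 in all 6 lists but H3K4me3 in 0 lists in these 300 bp. Motifs were searched on both strands, and none of them contains another. CAGAC, bound by SMAD proteins, was present in 18 of 44 members (40.9% against 44.3% of coding promoters), and CACCTG, an E-box bound by SNAI and ZEB proteins, in 8 (18.2% against 19.8%). The SMAD palindrome GTCTAGAC and the AP-1 motif TGANTCA were present in 0 members, against 0.203% and 5.74% of coding promoters. A match is a description of the sequence and does not show binding.

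**Figure D2:**
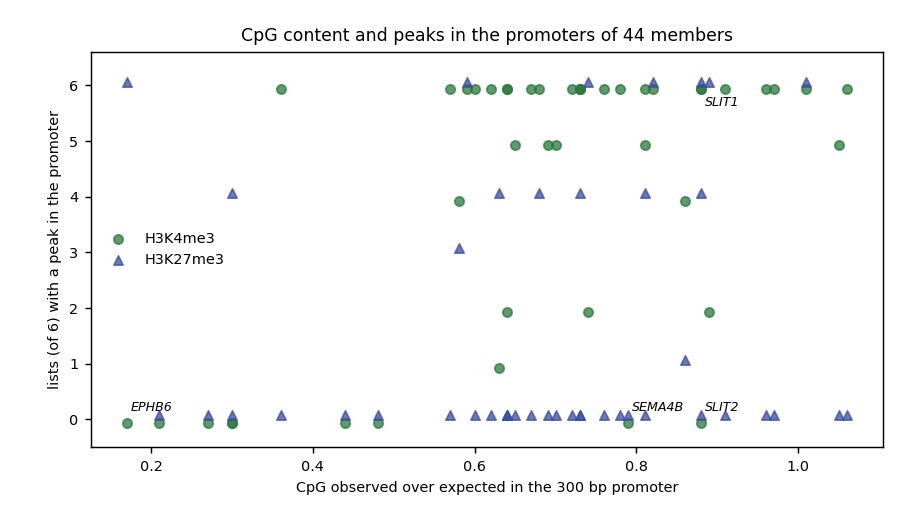
CpG observed over expected in the 300 bp RefSeq promoter of each of 44 members (x axis) and the number of the 6 lists with an H3K4me3 (circles) or H3K27me3 (triangles) peak in it (y axis). SLIT1 and SLIT2 stand at the same ratio of 0.88 with 6 and 0 H3K4me3 lists.

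Among the 14 Eph receptors, 13 had H3K4me3 in all 6 lists and 7 had H3K27me3 in all 6. The exception for H3K4me3 was EPHA1 (chromosome 7, 143087382 to 143105949), in which H3K4me3 covered 0 and 0 bp under siControl, 243 and 573 bp under siControl+TGFβ, and 0 and 0 bp under siPHF13+TGFβ (replicates 1 and 2 here and below). H3K4me3 was thus listed at EPHA1 in siControl+TGFβ libraries alone, over a gene whose window of 10001 bp also held 9194 and 10001, 7796 and 10001, and 6301 and 10001 bp of H3K27me3. H3K27me3 covered 13593 and 19341 bp around EPHA10, a receptor without kinase activity, under siControl, 15571 and 18168 bp under siControl+TGFβ and 7024 and 16576 bp under siPHF13+TGFβ. Around EPHB6 it covered 12724 and 23457, 15259 and 19073, and 4466 and 18839 bp. The groups overlapped at EPHA10 and EPHB6, and the lowest value of each was that of siPHF13+TGFβ replicate 1. EPHA2, EPHB2 and EPHB4, kinases known from epithelial and vascular tissue, had the opposite pattern, with 0 bp of H3K27me3 and with H3K27ac in 5 lists.

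Of the 7 ephrins among the members, which leave out EFNB1, all had H3K4me3 in all 6 lists. EFNA2, EFNA3 and EFNB3 had H3K27me3 in all 6 lists as well. EFNA5 (chromosome 5, 106712595 to 107006638), an ephrin held in the membrane by a lipid anchor, had the widest H3K4me3 of the family, with 3254 and 4365 bp under siControl, 4374 and 3738 bp under siControl+TGFβ, and 2136 and 4355 bp under siPHF13+TGFβ. Its H3K27ac covered 1257 and 2165, 3705 and 2444, and 0 and 3450 bp. Both siControl+TGFβ libraries had more H3K27ac than both siControl libraries, and the siPHF13+TGFβ libraries lay on either side of all others except siControl+TGFβ replicate 1. EFNA5 also had H3K27ac peaks in its gene body beyond the TSS windows, 8 and 6 with siControl, 18 and 14 with siControl+TGFβ, and 1 and 12 with siPHF13+TGFβ. These covered 4155 and 6339, 14790 and 9578, and 412 and 10820 bp.

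Semaphorins were divided by membrane attachment. Of 7 secreted class 3 members, 6 had H3K4me3 in all 6 lists, the exception being SEMA3G, at which the only peak was 715 bp of H3K27me3 in siControl+TGFβ replicate 1. SEMA3A and SEMA3C, ligands of neuropilin-plexin complexes, had 0 bp of H3K27me3 and H3K27ac in 5 lists. Of 13 transmembrane or lipid-anchored members, all had H3K4me3 and 7 had H3K27me3 in all 6 lists. SEMA5B (chromosome 3, 122627929 to 122747452) had the most H3K27me3 of all members, 27485 and 39191 bp under siControl, 33682 and 38957 bp under siControl+TGFβ, and 14802 and 36440 bp under siPHF13+TGFβ, in a window of 41103 bp. SEMA4B (chromosome 15, 90703836 to 90772911) had the most H3K27ac, 5460 and 6408, 9676 and 6311, and 662 and 8830 bp in the same order, in a window of 49987 bp that also holds TSS windows of CIB1 and GDPGP1. The groups overlapped at both genes.

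Of the 3 Slits, SLIT1 (chromosome 10, 98757795 to 98945716) carried both H3K4me3, at 401 to 888 bp, and H3K27me3, at 4350 to 10337 bp, in all 6 lists. SLIT3 carried H3K4me3 at 1213 to 2326 bp and 0 bp of H3K27me3. Among Robo receptors, ROBO1 carried H3K4me3 at 2464 to 4159 bp and 0 bp of H3K27me3. ROBO3 (chromosome 11, 124735328 to 124751367) was the only member with all 3 modifications in all 6 lists. H3K27ac and H3K27me3 were each present in all 6 lists at 1.15% of genes. Its H3K27me3 covered 15332 and 16702 bp under siControl, 15996 and 15220 bp under siControl+TGFβ and 9763 and 15300 bp under siPHF13+TGFβ, and its H3K27ac 412 and 873, 1211 and 914, and 433 and 1120 bp. All H3K27ac peaks at ROBO3 had their midpoints 10950 to 11609 bp downstream of its 5′ end, at −1006 to −347 bp from an internal TSS. The 300 bp RefSeq promoter of ROBO3, at chr11:124745828-124746127, had H3K4me3 in 6 lists, H3K27ac in 5 and H3K27me3 in 0. Without siPHF13+TGFβ replicate 1 SEMA4C had H3K27ac and H3K27me3 throughout as well (2 members, 4.73% of genes), and with only the 5′ end of each gene 0 members did. NTN1, a secreted netrin, had H3K27me3 in 5 lists and NTN4, a basement membrane netrin, in 1 list.

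**Figure D3:**
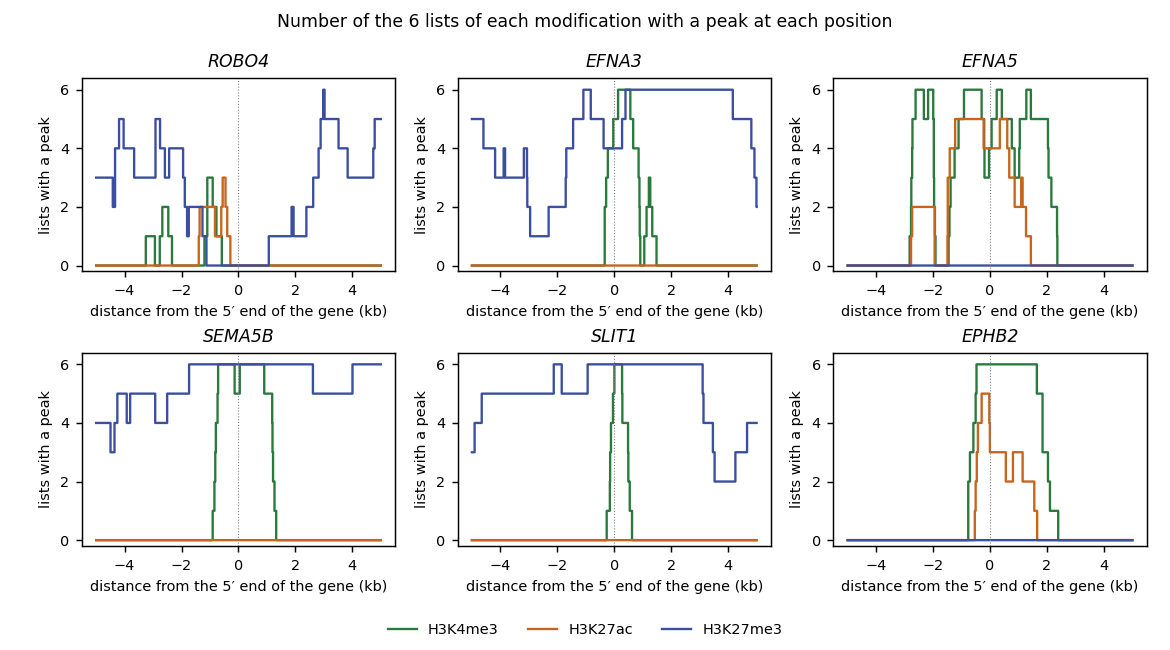
Number of the 6 lists of each modification (y axis) with a peak at each position from 5 kb upstream to 5 kb downstream of the 5′ end of 6 members (x axis, kb). H3K4me3 lies within the H3K27me3 domain at SEMA5B and SLIT1. At EFNA3 it does so fully in siControl+TGFβ alone, counting bases covered in both libraries of a group, which for siPHF13+TGFβ include the shortest list. H3K27ac lies beside H3K4me3 without H3K27me3 at EFNA5 and EPHB2, and the ROBO4 peaks of H3K4me3 and H3K27ac lie upstream of the 5′ end.

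The marks were then placed against each other, using bases covered in both libraries of a group. H3K4me3 and H3K27me3 covered the same bases at 18 members under siControl (36% against 10.4% of genes), at 25 under siControl+TGFβ (50% against 12.8%) and at 13 under siPHF13+TGFβ (26% against 6.89%). At 12 members they did so in all groups (24% against 6.28%). Bases had to be covered in both libraries, so the siPHF13+TGFβ counts and the shares of bases below depend on replicate 1, the shortest list. Its H3K27me3 peaks covered 48.6 Mb against 189 Mb in replicate 2. Neither was taken without that library, so whether the lower counts go with depletion was not tested. At EPHA8, SEMA5A, SEMA5B and SLIT1, 100% of the H3K4me3 bases lay inside H3K27me3 in every group. At ROBO3 this share was 35.9% with siControl, 38.1% with siControl+TGFβ and 25.3% with siPHF13+TGFβ, and at SEMA4F 12.2%, 13.5% and 0%, so that the marks there were mostly on different bases of the window. H3K4me3 peaks at the members also ranked lower in their lists. Over the 46 members with H3K4me3 in all lists, the strongest peak of a gene stood at a median percentile of 49.1 to 61.4 by −log10 q, against 73.2 to 79.7 over the 14390 such genes. For H3K27me3 these medians were 87.1 to 96.8 over 23 members and 77.5 to 95 over 4345 genes.

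H3K27me3 extended along whole genes at a few members. SEMA5B, 120 kb in length, was covered over 66.2% and 91.2% with siControl, 84.5% and 89.5% with siControl+TGFβ and 32.2% and 87.2% with siPHF13+TGFβ. SLIT1, 188 kb in length, was covered over 42.7% and 75.8%, 71.9% and 65.9%, and 23.2% and 65.8%. These domains were shortest in siPHF13+TGFβ replicate 1, in which 0 members were covered over at least 50% of their length against 4 to 11 in the other lists. Among long receptor genes, EPHB1, 465 kb in length, was covered over 5.03% and 34.2%, 15.1% and 19.3%, and 2.69% and 15.9%, whereas at most 0.272% of ROBO2 and 0.0361% of ROBO1 was covered. The median over the members was 0.00935% to 2.13% per list, against 0% over all genes in each.

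The effect of TGFβ was examined by asking at how many members both siControl+TGFβ libraries had more, or fewer, bp than both siControl libraries. For H3K4me3 both were higher at 20 of 50 members (40%, against 36.2% of all genes) and lower at 0 (1.61% of genes). The share was thus close to that of all genes. For H3K27ac both were higher at 9 members (18% against 34.4%) and lower at 0 (0.0354% of genes). The 9 were EPHA2, EPHA7, EPHB2, EFNA5, SEMA3F, SEMA7A, SLIT3, ROBO3 and ROBO4. For H3K27me3 both were higher at 5 members (10% against 2.66%), namely EPHA8, EFNA2, EFNA3, SEMA3B and ROBO4, and lower at SEMA5A alone (2% against 2.99%). H3K27me3 was listed in 0 lists at 28% of the members and 52.6% of genes, so that more of the members could meet this rule. For H3K27ac these shares were 52% and 35.4%, so that fewer of the members could meet it. With lists of equal length the higher members numbered 15 for H3K4me3 (34.6% of genes), 6 for H3K27ac (30.5%) and 7 for H3K27me3 (4.15%). With the lists as deposited and 1 library left out, a group of 1 library meets the rule more easily. Without siControl replicate 2 the higher members numbered 40 for H3K4me3 (58.1% of genes), 15 for H3K27ac (52.7%) and 25 for H3K27me3 (26.4%), and without siControl+TGFβ replicate 2 they were 36 (55.4%), 23 (62.2%) and 9 (7.08%). Without siControl+TGFβ replicate 1 the H3K27me3 count was 9 (7.06%), and without siControl replicate 1 H3K27me3 was lower at 21 members (33.9%) and higher at 5 (2.85%), and H3K4me3 was lower at 6 (10.2%).

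ROBO4 (chromosome 11, 124753587 to 124768396), a Robo receptor of vascular endothelium, was the only member higher with TGFβ for all 3 modifications with the lists as deposited. The share of all genes higher for all 3 was not counted. H3K4me3 covered 0 and 0 bp there under siControl, 1044 and 711 bp under siControl+TGFβ, and 0 and 319 bp under siPHF13+TGFβ. H3K27ac covered 0 and 0, 1114 and 154, and 0 and 694 bp. H3K27me3 covered 2746 and 4322, 5472 and 6269, and 1374 and 3399 bp. With lists of equal length H3K4me3 covered 0 bp at ROBO4 in all 4 libraries compared, so that 0 members were then higher for all 3 modifications. With the lists as deposited, all 3 modifications were higher in both siControl+TGFβ libraries than in both siControl libraries, and for H3K27ac a siPHF13+TGFβ library lay between the siControl+TGFβ libraries. The H3K4me3 and H3K27ac peaks lay upstream of the 5′ end, with midpoints at −3093 to −476 bp from it, and H3K27me3 shared 90 bp with H3K4me3 in siControl+TGFβ. The endothelial marker CDH5 had H3K4me3 and H3K27ac in 0 lists.

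EFNA3 (chromosome 1, 155051313 to 155060014), another lipid-anchored ephrin, was higher with TGFβ for H3K4me3 and H3K27me3 together with the lists as deposited. The share of all genes higher for both was not counted. H3K4me3 covered 694 and 1414 bp under siControl, 1446 and 1443 bp under siControl+TGFβ and 429 and 1086 bp under siPHF13+TGFβ. H3K27me3 covered 7344 and 6806, 9355 and 9334, and 4476 and 8320 bp. The siControl+TGFβ libraries were nearly equal for both modifications, and for H3K4me3 they exceeded the upper siControl library by less than the siControl libraries differed from each other. With lists of equal length H3K4me3 covered 1446 and 1178 bp under siControl+TGFβ, which overlapped the siControl libraries, and the H3K27me3 values were the same. All 1291 bp of H3K4me3 shared by the siControl+TGFβ libraries lay inside H3K27me3.

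Among members whose groups did not overlap, EPHB2, EFNA5 and EPHA2 had the largest H3K27ac differences in mean bp with TGFβ, whereas the larger difference at SEMA4B came with overlapping groups. With lists of equal length H3K27ac remained higher at EPHB2, EFNA5, SEMA3F, ROBO3 and ROBO4 of the 9 members, and SEMA4B was added. At EPHB2 (chromosome 1, 23037332 to 23247993), a receptor of B-type ephrins, H3K27ac covered 264 and 425 bp under siControl, 2184 and 1359 bp under siControl+TGFβ, and 0 and 2067 bp under siPHF13+TGFβ, and H3K4me3 covered 2148 and 2548, 2987 and 2866, and 2324 and 2804 bp. At EPHA2 (chromosome 1, 16450832 to 16482564), the receptor of EFNA1, H3K27ac covered 921 and 766, 2844 and 987, and 0 and 2021 bp. The difference at EPHA2 was carried by siControl+TGFβ replicate 1, which exceeded replicate 2 by more than replicate 2 exceeded either siControl library. SEMA7A, a lipid-anchored semaphorin that binds integrins, had 0 bp of H3K27ac in both libraries under siControl, 1158 and 578 bp under siControl+TGFβ, and 0 and 1232 bp under siPHF13+TGFβ. SLIT3 had 0 and 184, 1369 and 249, and 0 and 960 bp, SEMA3F had 0 and 209, 1328 and 832, and 0 and 1489 bp, and EPHA7 had 0 and 171, 477 and 295, and 0 and 188 bp. At SEMA6B, a transmembrane ligand of plexins, the H3K4me3 difference was the largest, with 1684 and 2794 bp under siControl, 3592 and 2998 bp under siControl+TGFβ and 1330 and 2786 bp under siPHF13+TGFβ. The lower siControl+TGFβ library exceeded the upper siControl library by less than the siControl libraries differed. With lists of equal length SEMA6B was no longer among the members higher for H3K4me3. At EPHA8 H3K27me3 covered 6137 and 9475, 10076 and 10076, and 7612 and 8831 bp, so that the whole window was covered in both siControl+TGFβ libraries. At SEMA5A, a semaphorin with thrombospondin repeats, it covered 6007 and 6332, 4241 and 5715, and 3435 and 6547 bp.

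**Figure D4:**
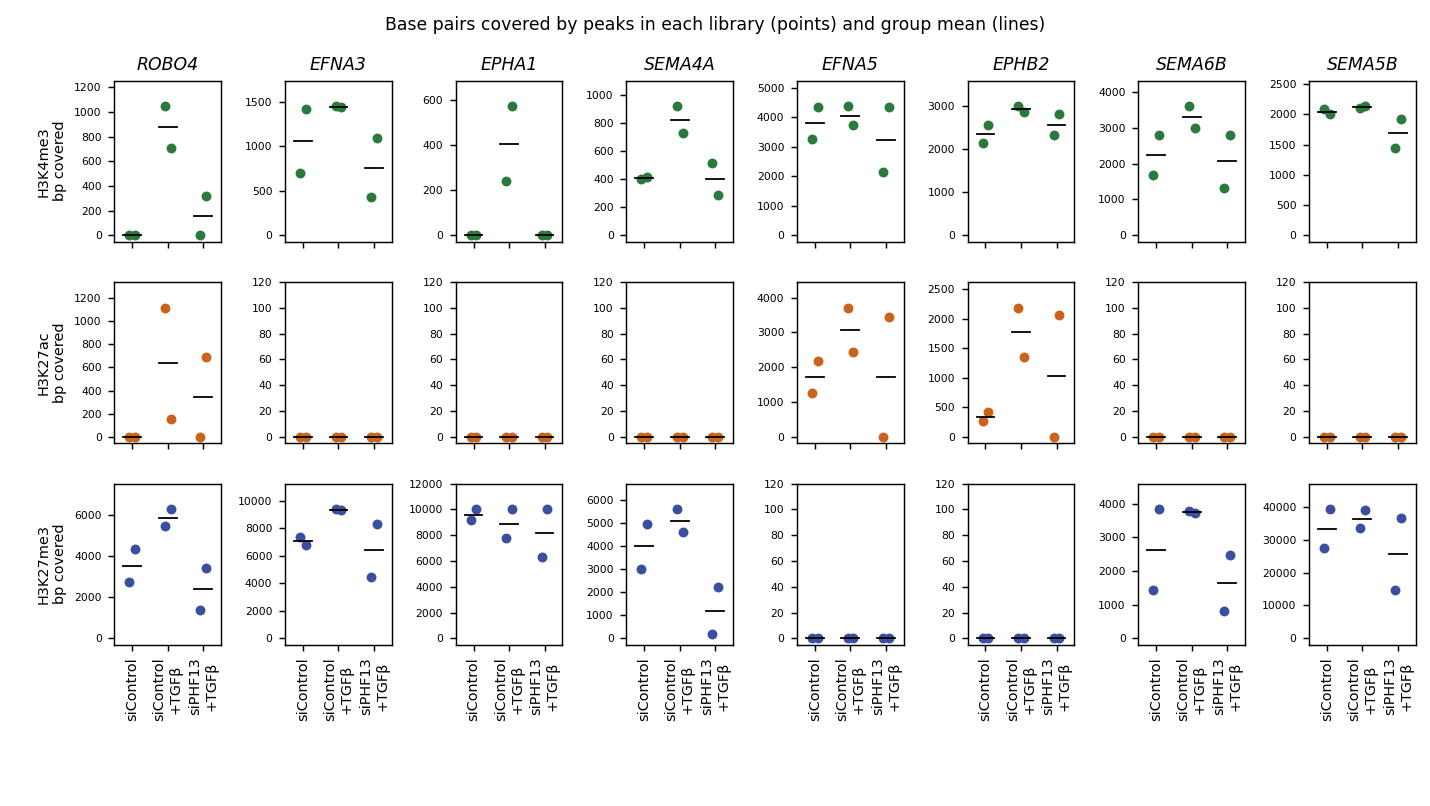
Base pairs covered by peaks (y axes, each from 0) in each library (points) of the 3 groups (x axis), with group means as lines, for 8 members and the 3 modifications. At ROBO4 both siControl+TGFβ points lie above both siControl points in all 3 rows, and at EFNA5 and EPHB2 the siPHF13+TGFβ points for H3K27ac are spread from 0 to above the siControl points.

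PHF13 depletion under TGFβ was examined in the same way, against the same siControl+TGFβ libraries, so that both comparisons share them. Its directions hold for the groups as labelled and would be reversed if the peak names were right. For H3K4me3 both siPHF13+TGFβ libraries were lower at 26 of 50 members (52% against 47.3% of genes) and higher at 0 (0.227% of genes). For H3K27ac both were lower at EPHA7 alone (2% against 6.48%) and higher at 0 (0.0101% of genes). For H3K27me3 both were lower at 10 members (20% against 12.2%), namely EPHA6, EPHA8, EFNA3, EFNB3, SEMA4A, SEMA4C, SEMA6B, SEMA6C, SEMA6D and ROBO4, and higher at 0 (0.495% of genes). The H3K4me3 share was close to that of all genes. H3K27me3 was in 0 lists at 28% of the members and 52.6% of genes, so that more of the members could be lower. H3K27ac was in 0 lists at 52% of the members and 35.4% of genes, so that fewer could be. With lists of equal length the lower members numbered 23 for H3K4me3 (44.4% of genes), 0 for H3K27ac (5.92%) and 8 for H3K27me3 (9.05%). With the lists as deposited but without siPHF13+TGFβ replicate 1, H3K4me3 was lower at 28 members (48.3% of genes) and higher at 4 (8.1%), H3K27ac was lower at 1 (6.48%) and higher at 8 (19%), and H3K27me3 was lower at 10 (12.4%) and higher at 8 (12.8%). For H3K27ac, the direction over the members thus rested on 1 library. Without siPHF13+TGFβ replicate 2 the lower members numbered 43 (72.6%), 16 (57.6%) and 30 (31.8%) for the 3 modifications, and without siControl+TGFβ replicate 2 they numbered 41 (64%), 15 (44.8%) and 16 (19.2%). Without siControl+TGFβ replicate 1 H3K27me3 was lower at 18 members (21.7%).

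**Figure D5:**
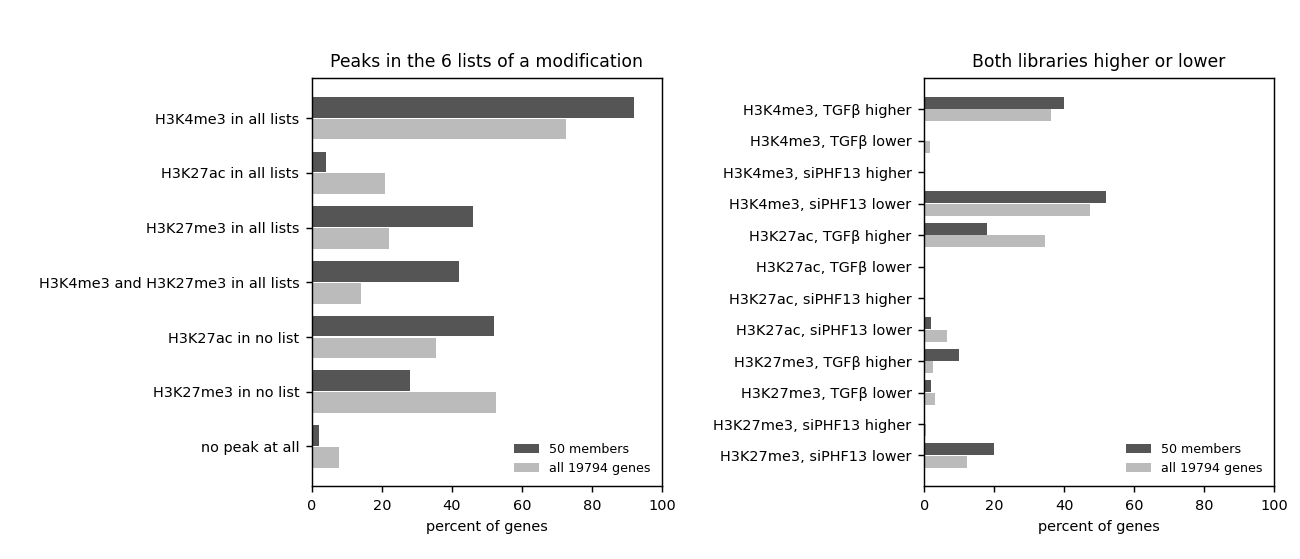
Percent of the 50 members (dark bars) and of all 19794 protein-coding genes (light bars) with peaks in the 6 lists of a modification (left) and with both libraries of the later-named group above or below both of the reference group (right). The members stand apart most for H3K4me3 with H3K27me3 in all lists (42% against 14.1%), whereas the bars are close together for the H3K4me3 differences with TGFβ (40% against 36.2%) and PHF13 depletion (52% against 47.3%).

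At 8 members both H3K4me3 and H3K27me3 were lower in both siPHF13+TGFβ libraries: EPHA8, EFNA3, EFNB3, SEMA4A, SEMA4C, SEMA6B, SEMA6C and ROBO4. The share of all genes lower for both was not counted, here or in lists of equal length. Taken singly, H3K4me3 was lower at 47.3% of genes and H3K27me3 at 12.2%. In lists of equal length, 4 of these remained, EPHA8, EFNA3, EFNB3 and SEMA4A, and SEMA4F was added. At SEMA4A (chromosome 1, 156117157 to 156147543), a semaphorin with known roles in immune cells and retina, H3K4me3 covered 404 and 417 bp under siControl, 919 and 727 bp under siControl+TGFβ, and 518 and 289 bp under siPHF13+TGFβ. H3K27me3 there covered 3009 and 4955, 5584 and 4593, and 172 and 2227 bp. The gap between these groups exceeded the difference between the replicates of each group for H3K27me3, and for H3K4me3 it was smaller than the difference between the siPHF13+TGFβ replicates. At SEMA6C H3K27me3 covered 0 and 1671, 2533 and 1283, and 0 and 0 bp. At EFNB3, a transmembrane ephrin of midline cells, H3K4me3 covered 988 and 1010, 1397 and 1277, and 733 and 1104 bp, and H3K27me3 421 and 4265, 3177 and 2803, and 1510 and 1496 bp. At SEMA4C, H3K27me3 covered 152 and 2147, 1521 and 870, and 0 and 184 bp. When the lists had equal length, a siControl+TGFβ library was at 0 bp at each of SEMA6C and SEMA4C, and the groups no longer differed by this rule. At SEMA6C siControl replicate 1 was also at 0.

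Other members whose groups did not overlap had large differences in mean bp with depletion. Differences of −10698.5 bp of H3K27me3 at SEMA5B and −3247.5 bp of H3K27ac at SEMA4B were larger, but with overlapping groups. SEMA6D (chromosome 15, 47476298 to 48066425), a transmembrane ligand of PLXNA1, had 3196 and 11383 bp of H3K27me3 under siControl, 8282 and 9499 bp under siControl+TGFβ and 533 and 5179 bp under siPHF13+TGFβ. SEMA6A (chromosome 5, 115779251 to 115910519) had 819 and 2237, 3080 and 2005, and 868 and 1683 bp of H3K4me3. EFNA1 (chromosome 1, 155100352 to 155107375), a ligand of EPHA2 whose window also holds a TSS window of SLC50A1, had 2362 and 2802, 2782 and 3422, and 1819 and 2449 bp. At SEMA6A the siControl libraries overlapped both other groups, and at EFNA1 both siPHF13+TGFβ libraries lay below both siControl+TGFβ libraries.

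None of these differences passed a test across all genes. In limma on log2(bp + 100), with Benjamini-Hochberg adjustment over the genes covered in at least 2 of 6 libraries, 0 of 48 tested members were called for H3K4me3 with TGFβ (19 of 15173 genes, 0.125%) or with depletion (23 genes, 0.152%). For H3K27ac 0 of 23 tested members and 0 of 12282 genes (0%) were called in either comparison, and for H3K27me3 0 of 31 members and 0 of 8167 genes (0%). The H3K27ac SE was 1.51 at each tested member. Its fit held siPHF13+TGFβ replicate 1 also for the comparison with TGFβ, in which that library has no part. In the fit over the 4 libraries of that comparison, 0 genes were called for H3K27ac as well. The lowest limma adjusted p of a member was 0.46 with TGFβ and 0.338 with depletion, both for H3K4me3 at EPHA1. At an unadjusted limma p under 0.05, H3K4me3 was higher with TGFβ at SEMA4A, EPHA1 and ROBO4. It was lower with depletion at EPHA1, EFNA1, EFNB3, SEMA3F, SEMA4A and ROBO4. Over all tested genes 484 (3.19%) passed this limit with TGFβ and 1399 (9.22%) with depletion. These gene counts, and the shares in the next sentence, take both directions together. The same limit was passed by SEMA7A for H3K27ac with TGFβ (0.716% of genes), by 0 members for H3K27ac with depletion (0.0326%) and H3K27me3 with TGFβ (1.92%), and by SEMA6C for H3K27me3 with depletion (2.33%). At SEMA4A the log2 change of H3K4me3 was 0.85 ± 0.25 with TGFβ (SE, limma adjusted p = 0.873) and −0.90 ± 0.25 with depletion (limma adjusted p = 0.409). At EPHA1 and ROBO4 all siControl libraries were at 0, so no fold is given, and their limma p rests on the pseudocount. For single values, 2 libraries against 2 cannot give an exact two-sided permutation p below 0.33.

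On the log2 scale, the median H3K4me3 difference over the members was 0.15 with TGFβ against 0.08 over all genes, and −0.35 against −0.17 with depletion. For H3K27ac the medians were 0.00 against 0.31 and 0.00 against −0.85, since 26 members had 0 bp in all 6 lists. For H3K27me3 they were 0.00 against 0.00 and −0.40 against 0.00. H3K27me3 was in 0 lists at 52.6% of genes and 28% of members, which holds the median over all genes at 0.00. Over the 8167 genes covered in at least 2 of 6 libraries the median with depletion was −0.92. Over the 31 tested members the middle value was −0.64, that of SEMA5B, so a larger loss at the members is not shown. Without siPHF13+TGFβ replicate 1, the medians of the members with depletion were −0.10 for H3K4me3 and 0.00 for H3K27me3, so that both depended on that library.

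A further 35 genes of the pathway were chosen as receptors, ligands and signalling partners of the members. The ephrin EFNB1 and the netrins NTN3 and NTN5 were counted here and not among the members. H3K4me3 was in all 6 lists at 29 of the 35 (72.7% of all genes). In all 6 lists 2 had H3K27ac (21%), 14 had H3K27me3 (22%) and 13 had both H3K4me3 and H3K27me3 (14.1%). The latter included PLXNA2, PLXNA4 and NRP2, receptors of semaphorins, and UNC5A and UNC5B, receptors of netrins. Without siPHF13+TGFβ replicate 1, 10 of the 35 had H3K27ac in all 5 lists (49.4% of genes), NRP1 among them. In these lists 18 had H3K27me3 (28.3%) and 16 had both H3K4me3 and H3K27me3 (18.2%). CHL1 had 0 peaks. With TGFβ, H3K4me3 was higher in both libraries at 13 of 35 (36.2% of all genes) and lower at 0 (1.61%), H3K27ac at 6 (34.4%) and 0 (0.0354%), and H3K27me3 at 3 (2.66%) and 1 (2.99%). With depletion, H3K4me3 was higher at 0 (0.227%) and lower at 20 (47.3%), H3K27ac at 0 (0.0101%) and 0 (6.48%), and H3K27me3 at 0 (0.495%) and 6 (12.2%). In limma, 0 of these genes were called for any modification in either comparison.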

How the data were processed

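Per the study's methods, the authors trimmed reads with Trim Galore 0.4.1, aligned them to hg19 with Bowtie2 2.4.1, used Picard to discard duplicates and, with input as control, called peaks by MACS2 2.2.7.1. A single list per library was deposited. The 6 input samples were not analysed here. The deposited lists give each peak a fold enrichment (a ratio over input) and the −log10 of its q-value, both computed by the authors. The fold enrichment was not used in any result. The lowest −log10 q was 1.30 for H3K4me3 and H3K27ac, below the threshold stated in the methods, and 1.0 for H3K27me3. The lists hold no read counts, so depth is unknown and no counting interval is given.

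Base pairs covered were counted with NumPy 2.4.6 in Python 3.11.15, over merged windows of 5 kb either side of every protein-coding TSS of GENCODE 44 on GRCh37. A peak counted as present from 1 bp. All genes covered in at least 2 of 6 libraries entered limma 3.58.1 in R 4.3.3. It took log2 of bp + 100 in a single fit over 3 groups, with a Benjamini-Hochberg adjusted p under 0.05 as the limit. The code was run on simulated data with large changes and a spread smaller than that of H3K27ac and H3K27me3 here. That run does not measure the power on these lists. Alternatives were other pseudocounts, no filter, untransformed bp, 4 libraries, a replicate block, equal-length lists, a −log10 q of at least 3, 2.5 kb windows, the 5′ end alone and each library left out. Windows of 8 members also held TSS windows of other genes, namely EPHB6, EFNA1, EFNA2, EFNA4, SEMA3B, SEMA3G, SEMA4B and SEMA4F.

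The members, the gene lists and the rules were chosen with earlier results of these data known. Values in every library were given for members whose groups did not overlap for at least 2 modifications in a comparison, for up to 3 non-overlapping members with the largest mean difference per modification, comparison and direction, for the 4 members with the most H3K27me3 among those with H3K4me3 and H3K27me3 throughout and the 4 with the most H3K27ac among those with it throughout (2 existed), and members without peaks were named. Further members were described after their values were seen. RefSeq promoters matched 44 of 50 symbols. EPHA10, EFNB3, SEMA3A, SEMA6A, SEMA6B and NTN1 had no match.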

Additional observations from a re-analysis of the deposited data

How the results depend on the processing

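The counts of members whose groups did not overlap moved most when a library was left out, and fewer libraries must then meet the rule. For H3K4me3 with TGFβ, the higher members numbered 23 to 40 (42.7% to 58.1% of genes) and the lower ones 1 to 6 (3.65% to 10.2%). With depletion the higher ones numbered 0 to 4 (0.662% to 8.1%) and the lower ones 28 to 43 (48.3% to 72.6%). For H3K27ac these counts were 9 to 23 (34.8% to 62.2%) and 0 to 2 (0.0556% to 4.05%) with TGFβ. With depletion they were 0 to 8 (0.0101% to 19%) and 1 to 16 (6.48% to 57.6%). For H3K27me3 they were 5 to 25 (2.85% to 26.4%) and 1 to 21 (3.75% to 33.9%) with TGFβ. With depletion they were 0 to 8 (0.985% to 12.8%) and 10 to 30 (12.4% to 31.8%). The shares of all genes thus moved as well. The upper ends of the member counts were reached without siControl replicate 1 (21 lower for H3K27me3) or replicate 2 (40 and 25 higher for H3K4me3 and H3K27me3), without siControl+TGFβ replicate 2 (23 higher for H3K27ac) and without siPHF13+TGFβ replicate 2 (43, 16 and 30 lower). The median log2 difference of the members ranged from 0.05 to 0.32 for H3K4me3 with TGFβ, from −0.58 to −0.10 for H3K4me3 with depletion, from −0.01 to 0.28 for H3K27me3 with TGFβ and from −0.96 to 0.00 for H3K27me3 with depletion.

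With all libraries, the single member lower in H3K27ac with depletion became 0 with lists of equal length, and the single member lower in H3K27me3 with TGFβ became 2 with lists of equal length, 2 with the 5′ end alone and 0 with windows of 2.5 kb. Members with H3K27ac in all lists numbered 11 in the 5 lists without siPHF13+TGFβ replicate 1, and 1 with the 5′ end alone, both added after the data were seen. With the 5′ end alone, members with H3K4me3 in 0 lists numbered 5 instead of 2, and members without any peak 3 (SEMA3A, SLIT2 and ROBO2) instead of 1.

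Calls by limma depended on the setting. For H3K4me3 with TGFβ the genes called numbered 41 with a pseudocount of 10 bp, 0 with 1000 bp, 0 on untransformed bp, 7 without the filter, 3 in the fit over 4 libraries and 0 with each library left out. For H3K4me3 with depletion they numbered 49 with a pseudocount of 10 bp, which called 1 member, 0 with 1000 bp, 0 on untransformed bp, 12 without the filter, 5 with lists of equal length and 0 to 5 with each library left out. Without the filter, H3K27ac gave 2 genes in each comparison and H3K27me3 gave 19 with TGFβ and 3 with depletion. For H3K27ac with depletion, leaving out each library gave 0 to 9634 genes and 0 to 13 members, the upper ends without siPHF13+TGFβ replicate 2, when the shortest list alone stood for its group and was assumed to vary like the others. With a replicate block 0 genes were called for H3K4me3 in either comparison, and it changed no call of a member. Deviations of equally numbered libraries correlated at −0.42 to 0.52, so the numbers were not taken to pair them.

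With 2 libraries per group and lists that differ severalfold in length, differences in covered bp that are smaller than the spread between replicates were not detectable here. Absence of a peak is absence from a list whose depth is unknown.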
